A study of Mus musculus with 8 samples.

Results

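Heat shock proteins and chaperones were examined as a set of 81 genes among 21887 protein-coding genes on 21 chromosomes of mouse GRCm38 (mm10). The members were chosen by gene symbol: the Hspa, Hspb, Hspd, Hspe, Hsph and Hsp90 genes, the Dnaja, Dnajb and Dnajc genes of the J domain (HSP40) family, and the Cct genes of the cytosolic chaperonin. Their readout was binding of phosphorylated CREB1 in mouse skeletal muscle, measured by chromatin immunoprecipitation and sequencing (ChIP-seq). CTRL was muscle of control mice, and C26 was muscle of male Balb/c mice injected subcutaneously at 2 months of age with C26 cells, a murine adenocarcinoma line used as a model of cancer cachexia, in which muscle is lost. The labels do not give the age and sex of the control mice separately. The series held 8 samples, of which 4 were phospho-CREB1 libraries (2 CTRL and 2 C26) and 4 were input libraries of chromatin without immunoprecipitation. The labels do not say whether the 2 replicates of a group came from separate animals. They describe rolipram, a phosphodiesterase 4 inhibitor, or vehicle given to C26 mice without saying which the ChIP-seq mice received. The tissue label reads gastrocnemius but the extraction text reads quadriceps, and that text gives 5 µg of antibodies against either CREB or phospho-CREB1.

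CREB1 is a transcription factor that is activated by phosphorylation downstream of cAMP and binds the cAMP response element (CRE), with the core TGACG. Chaperones bind unfolded or newly made proteins. HSP70 proteins work in cycles driven by ATP, J domain proteins deliver their clients, HSP110 proteins exchange their nucleotide, and HSP90 finishes the folding of kinases and steroid receptors. The chaperonins are barrels: HSP60 with HSP10 in mitochondria, and the CCT complex, which folds actin and tubulin, in the cytosol. Small heat shock proteins hold damaged proteins in solution, and several of them are abundant in muscle, where they protect the sarcomere. The heat shock response is classically driven by HSF1 through heat shock elements, and endoplasmic reticulum (ER) chaperones are induced through ER stress elements.

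Each phospho-CREB1 library had its own peak list, called by the authors against input at a q threshold of 0.05. The lists held 10835 (CTRL replicate 1), 14975 (CTRL replicate 2), 7482 (C26 replicate 1) and 4051 peaks (C26 replicate 2), and read depth is unknown. A gene-end peak had its summit within 1000 bp of either end of the gene span. The fold enrichment over input and the −log10 q are the authors' values for each peak, scaled within a library. Peak strength is expressed as a percentile of −log10 q among all peaks of the same library, 100 being the strongest. Values run in a fixed order, the CTRL replicates 1 and 2 and then the C26 replicates 1 and 2, and they are ranked only inside a list. A missing peak means that nothing passed the authors' threshold there, and it does not show that the gene was unbound. In a library of whole muscle, weaker binding in every nucleus and binding in fewer nuclei cannot be told apart. With 2 libraries per group an exact permutation test (two-sided) cannot go below p = 0.333, so the counts below are descriptions without a test. As a check of the tissue, 8 of 12 muscle fiber markers (66.7%), among them Ckm and Acta1, were bound at a gene end in each CTRL library. The share over all protein-coding genes was 32.2%, and the fiber markers Myh1, Myh2 and Myoz1 had no gene-end peak in any library. Of 4 endothelial and 4 fibroblast markers, 1 each (Kdr and Col1a1) had a gene-end peak, in CTRL replicate 2 alone. No leukocyte marker of the list (Adgre1, Cd3e, Cd68, Itgam and Ptprc) had a gene-end peak in any library.

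Chaperone genes carried phospho-CREB1 at their ends in most cases. A gene-end peak was present at 58, 62, 52 and 41 of the 81 members in the 4 libraries, where the background over all protein-coding genes was 33.9%, 40.1%, 26.1% and 14% in the same order. Both CTRL libraries had one at 56 members (69.1%, background 32.2%), and all 4 libraries at 40 (49.4%, background 12.7%). The other members with both CTRL peaks were 10 with a further peak in C26 replicate 1 alone (background 11.3%), 0 with one in C26 replicate 2 alone (background 0.676%), and 6 with none in C26 muscle (background 7.4%). No member was bound in the 2 C26 libraries alone (background 0.0274%). The remaining 8 members had a peak in 1 CTRL library or another mixture (background 10.2%), and 17 had none in any library (background 57.7%). The background covers all protein-coding genes, whether or not muscle expresses them. A pair of gene sets of protein turnover and synthesis gave similar CTRL shares: 37 of 51 proteasome genes (72.5%) and 70 of 86 cytosolic ribosomal protein genes (81.4%) had both CTRL peaks, and 13 (25.5%) and 37 (43.0%) had all 4.

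**Figure D1:**
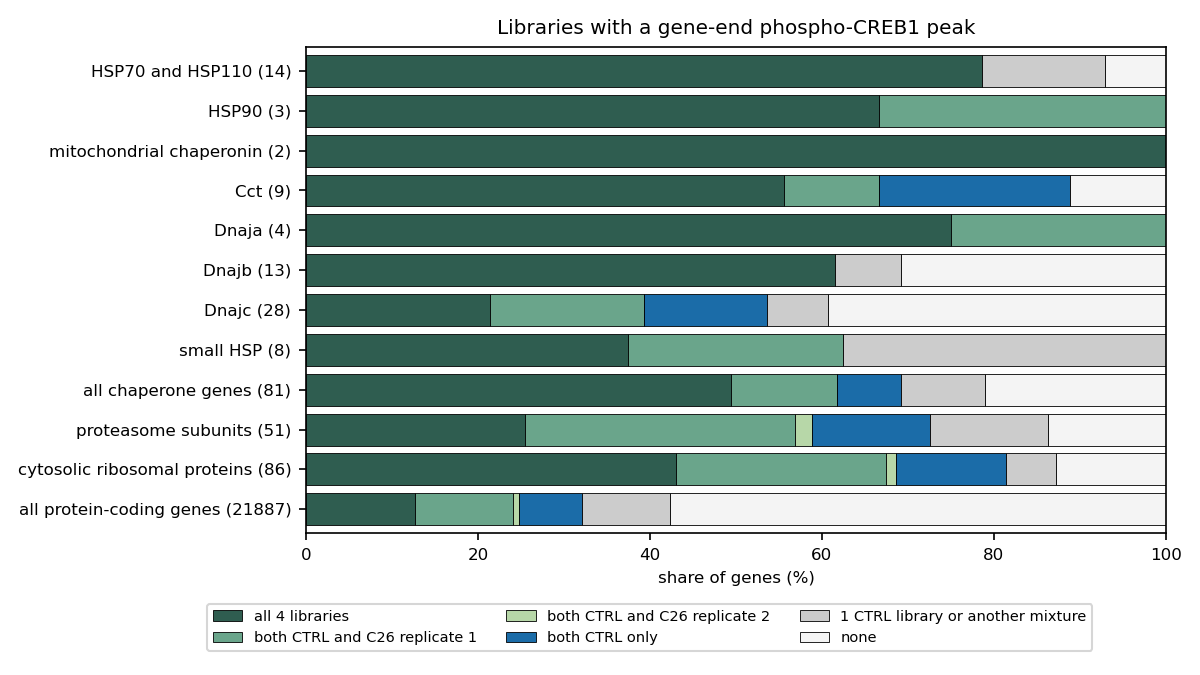
Share of genes (x axis, percent) by the libraries that had a gene-end peak, for each chaperone family, all 81 chaperone genes, 2 other gene sets and all 21887 protein-coding genes, with the number of genes in brackets. The HSP70 and HSP110 bar has 11 of 14 genes in all 4 libraries, while the Dnajc bar has 6 of 28 there and 11 in none.

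The strongest members were J domain and chaperonin genes. Dnajc30, a mitochondrial J protein, had 47.7-, 114-, 53.6- and 28.5-fold enrichment (percentiles 98.6, 99.2, 98.6 and 97.1). Its peak (chr5:135063720-135064570 in CTRL replicate 2) also lies at the end of Bud23, an rRNA methyltransferase gene, and it was the strongest of all members in 3 of the 4 lists. Dnajb11, an ER co-chaperone of the HSP70 protein BiP, took first place among members in CTRL replicate 1 and second in both C26 lists, with 57.9-, 56.2-, 46.6- and 23.4-fold enrichment (percentiles 98.7, 98.1, 98.3 and 95.4; chr16:22857107-22858091, shared with the end of Tbccd1). Dnajb12, an ER membrane J protein, had 39.3-, 72.9-, 17.6- and 15.0-fold enrichment (chr10:59879029-59880170), and Cct4, a chaperonin subunit, had 32.6-, 74.7-, 26.4- and 20.2-fold (chr11:22990150-22991040). All 3 of Dnajc30, Dnajb11 and Cct4 stood among the strongest 4 members of every list.

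Another CCT subunit and cytosolic J proteins were also among the 10 strongest by the weaker CTRL percentile. Cct6a had 28.4-, 35.2-, 15.0- and 9.52-fold enrichment (chr5:129786872-129787917, shared with Psph), and Dnaja2, a cytosolic HSP40, had 24.5-, 64.1-, 24.8- and 10.8-fold (chr8:85554786-85555977). Dnajb6, which keeps proteins from aggregating and is mutated in a limb-girdle muscular dystrophy, had 18.3-, 33.3-, 23.5- and 12.5-fold (chr5:29735538-29736572). Dnajb1, the stress-inducible HSP40, had 28.9-, 33.0-, 12.2- and 6.86-fold (chr8:83607710-83608689), with percentiles of 94.0, 95.1, 89.3 and 48.3. The Dnajb1 peak thus ranked high in the first 3 lists and near the middle of the list of C26 replicate 2.

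The mitochondrial chaperonin genes Hspd1 (HSP60) and Hspe1 (HSP10) lie head to head and share a single peak, which was present in every library. It had 20.3-, 26.4-, 14.0- and 7.20-fold enrichment (percentiles 94.3, 94.9, 91.4 and 54.1; chr1:55087415-55088649), high in both CTRL lists and C26 replicate 1 and near the middle in C26 replicate 2. Other peaks of this set also lay near the end of a second gene, counted here in any orientation and at either end of that gene. Hspd1 with Hspe1, and Hspa1a with Hspa1l, are counted as separate members though each pair has a single peak. The peaks of Hspa14, Hsp90b1, Hspb6 and Cct7 also lay at the ends of Cdnf, Ttc41, Proser3 and Pradc1. The second gene is not named at every shared peak. In CTRL replicate 2, the peaks of 22 of the 56 members with both CTRL peaks (39.3%) also lay at the end of another protein-coding gene, against 31.2% of all 7037 genes with both CTRL peaks.

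To show members of different compartments whose window holds a CRE core, alone or beside a stress element, the 250 bases before the transcription start are given for Dnajb11, for Hspe1 (whose window is the shared region with Hspd1) and for Hspa5, the gene of the ER HSP70 BiP. The sequences are RefSeq's for GRCm38.p6, 5′ to 3′ on the strand of the gene. Capitals mark the CRE core (TGACG, or CGTCA for the other strand), the heat shock element (GAA, 2 bases of any kind, TTC, 2 bases, GAA, or the same on the other strand) and the ER stress element (CCAAT, 9 bases of any kind, CCACG, or the same on the other strand). The ER stress element contains the CCAAT motif, and the full CRE, TGACGTCA, contains the core on both strands. The windows are chr16:22857595-22857844 on the plus strand, chr1:55087898-55088147 on the plus strand and chr2:34771840-34772089 on the plus strand.
Dnajb11: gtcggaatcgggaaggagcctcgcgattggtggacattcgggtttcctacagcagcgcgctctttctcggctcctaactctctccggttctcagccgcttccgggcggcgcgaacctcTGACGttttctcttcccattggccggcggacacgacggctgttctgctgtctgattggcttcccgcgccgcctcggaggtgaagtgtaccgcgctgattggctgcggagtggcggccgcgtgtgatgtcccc
Hspe1: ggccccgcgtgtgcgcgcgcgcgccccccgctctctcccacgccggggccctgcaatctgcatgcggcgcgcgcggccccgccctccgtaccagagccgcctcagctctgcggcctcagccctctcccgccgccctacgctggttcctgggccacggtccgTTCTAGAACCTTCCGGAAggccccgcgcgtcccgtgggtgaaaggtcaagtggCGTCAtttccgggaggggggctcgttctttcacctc
Hspa5: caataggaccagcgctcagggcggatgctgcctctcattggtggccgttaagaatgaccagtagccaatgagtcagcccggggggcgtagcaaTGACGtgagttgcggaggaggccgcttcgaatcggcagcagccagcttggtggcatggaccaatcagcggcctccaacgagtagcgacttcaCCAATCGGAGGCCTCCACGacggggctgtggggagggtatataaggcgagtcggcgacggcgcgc
In Dnajb11 the core starts 132 bases before the transcription start, and the 4 summits fell 135, 139, 135 and 134 bases before it. In the window shared by Hspe1 and Hspd1, overlapping matches to the heat shock element start 89 and 84 bases before the start of Hspe1 and a CRE core 36 bases before it. The summits lay 55, 57, 66 and 79 bases before the Hspe1 start, the first 3 between the heat shock element and the core and the last within the heat shock element. In Hspa5 a CRE core starts at 157 bases and an ER stress element at 65 bases before the start, and the summits were at 168, 142, 156 and 190 bases. The centre of the Hspa5 core was 13, 13, 1 and 35 bp from these summits. The nearest CCAAT motif, outside the ER stress element, was 16, 42, 28 and 6 bp from them. It was thus nearer than the core in C26 replicate 2.

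Across the set, a promoter window of 300 bases (250 before and 50 from the transcription start) was given in the RefSeq table for 66 of the 81 members, in 85 windows, and for 17492 protein-coding genes. The CRE core was present in a window of 35 members (53%, against 26.2% of all genes). Among the 33 members with a peak in all 4 libraries it was present in 23 (69.7%, against 60.3% of all such genes). It was present in 3 of 9 members with a C26 peak in replicate 1 alone (33.3%, where all genes, bound or not, had 26.2%). The core was also present in 1 of 5 with CTRL peaks alone (27.1% of all such genes) and 6 of 13 with no gene-end peak (16% of all such genes). The 13 include Dnajc25, which holds the core, and Dnajc1, which does not. Both had peaks in all 4 libraries at a listed start inside the gene. The full CRE was found only in Dnajc27 (1 of 66, 1.52%, against 2.54% of all genes). Among members with a peak in all 4 libraries this is 1 of 33 (3.03%), against 10.5% of all such genes. CCAAT, on either strand, was found in 29 members (43.9%, against 42.3% of all genes). With a peak in all 4 libraries it was found in 19 of 33 members (57.6%, against 48.4% of all such genes). These shares describe letters in a window and not binding sites.

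Summits lay close to the CRE core where both were in the window. In CTRL replicate 2, 27 members had both, with a median distance of 21 bp from summit to the centre of the nearest core, and 18 (66.7%) were within 25 bp. Over all genes with both, the median was 23 bp and 52.8% were within 25 bp, so this closeness was shared with other bound promoters. In CTRL replicate 1 and C26 replicates 1 and 2 the members' median distance to the core was 21 bp (25 members), 18 bp (23) and 23 bp (20). For the CCAAT motif the members' median distances in the 4 libraries were 26 bp (18 members), 40.5 bp (18), 36.5 bp (14) and 29 bp (13), against 44, 45, 43 and 42 bp over all genes. The distance to CCAAT was thus close to that of the core in CTRL replicate 1 and C26 replicate 2 and longer in the other 2 libraries.

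Among members with a peak in all 4 libraries, 12 had the core within 25 bp of the summit in both CTRL libraries, and in 10 of these it lay upstream of the start. For the 7 of these 10 not printed above, 31 bases centred on the core show that the letters around it differ.
Cct6a: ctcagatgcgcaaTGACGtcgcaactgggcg
Dnaja2: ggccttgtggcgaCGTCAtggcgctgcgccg
Dnajb1: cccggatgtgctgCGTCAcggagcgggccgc
Dnajb9: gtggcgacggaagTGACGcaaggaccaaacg
Dnajc16: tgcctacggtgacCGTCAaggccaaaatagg
Hspa14: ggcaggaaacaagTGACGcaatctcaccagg
Hspd1: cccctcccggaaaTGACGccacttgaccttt
Capitals mark the core. The stretches are chr5:129787228-129787258 (plus strand), chr8:85555373-85555403 (minus), chr8:83608151-83608181 (plus), chr12:44210191-44210221 (minus), chr4:141790786-141790816 (minus), chr2:3513024-3513054 (minus) and chr1:55088099-55088129 (minus), each in the direction of its gene. The Hspd1 stretch is the reverse complement of the core region in the Hspe1 window. The 4 summits of Hspa14 fell 4, 8, 2 and 10 bp from the core centre, and those of Dnajb1 2, 8, 7 and 6 bp from it. Those of Dnajc16, an ER-associated J protein gene, fell 3, 17, 18 and 15 bp from it.

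**Figure D2:**
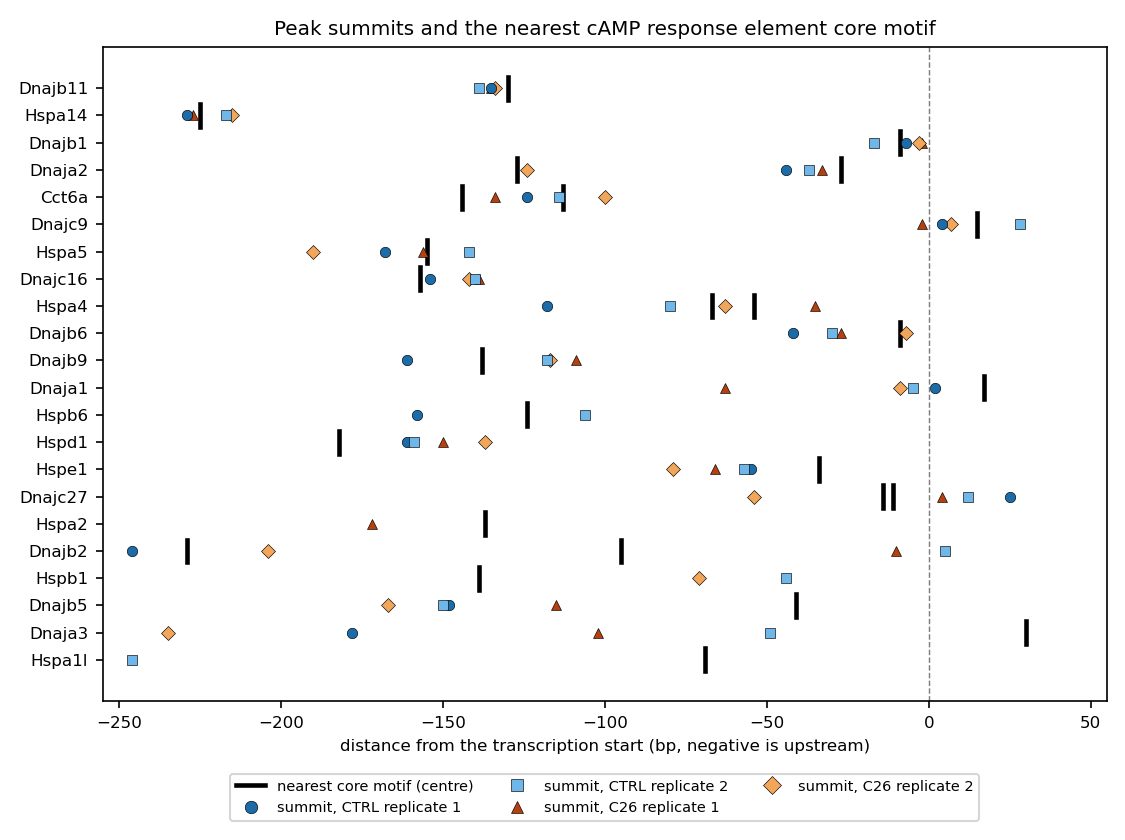
Position of the strongest peak summit of each library (symbols) and of the nearest CRE core motif (black bars) relative to the transcription start, in bp, for the 22 chaperone genes with a gene-end peak in all 4 libraries and at least 1 library whose summit shared a promoter window with a core motif. For a gene with several starts, positions refer to the start whose window gave the shortest distance. Dnajb11 and Hspa14 have all 4 summits within 10 bp of the core, while the Dnaja3 and Dnajb5 summits lie over 70 bp from it.

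Closeness to a CRE core was not a property of every strong member. Dnajb12 held neither core nor full CRE in its window, and its summits lay 15, 13, 10 and 12 bases after the start. In all, 10 of the 33 members with a peak in all 4 libraries had no core in any window: Cct2, Cct3, Cct8, Dnajb12, Dnajc17, Hsp90b1, Hspa1a, Hspa1b, Hspb11 and Hsph1.

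Of the larger families, the HSP70 and HSP110 family had the highest share of genes with a peak in all 4 libraries. The Cct family had a higher share with both CTRL peaks (88.9%). Of its 14 members, 11 (78.6%) were bound in CTRL replicates 1 and 2 (background 32.2%). All 11 were also bound in the C26 replicates (background for all 4 libraries 12.7%). Hspa5 (BiP) was its strongest member by the weaker CTRL percentile, though Hspa8, Hspa14 and Hspa4 ranked above it in CTRL replicate 2. It had 21.8-, 21.5-, 17.5- and 9.76-fold enrichment (percentiles 95.1, 93.8, 93.5 and 74.3; chr2:34771580-34772240). Hspa8, the constitutive cytosolic HSC70, had 19.7-, 25.6-, 8.09- and 10.6-fold, Hspa4, an HSP110-type exchange factor, had 18.2-, 23.6-, 7.15- and 9.97-fold, and Hspa14, a ribosome-associated HSP70, had 19.8-, 25.2-, 8.67- and 9.11-fold. Hspa13, a microsomal HSP70, had 14.0-, 16.1-, 6.80- and 9.05-fold, and Hspa9, mitochondrial mortalin, had 12.7-, 11.9-, 5.31- and 7.81-fold. Hspa2 (8.70-, 13.7-, 4.84- and 5.57-fold) stood below Hspa9 in CTRL replicate 1 and above it in CTRL replicate 2. Lower than both in each CTRL list was Hsph1, the HSP105 gene (9.60-, 7.72-, 4.604- and 4.76-fold, percentiles 66.3, 59.2, 44.6 and 9.65).

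The stress-inducible genes Hspa1a and Hspa1b stood at lower percentiles than Hspa5, Hspa8 and Hspa9 in each CTRL list, but Hspa1a stood above Hspa9 in both C26 lists (Hspa9 percentiles 79.4, 77.3, 57.9 and 59.3). Hspa1a had 7.77-, 10.97-, 6.75- and 9.46-fold enrichment (percentiles 63.2, 76.5, 64.9 and 72.0; chr17:34972118-34972707), at a peak shared with Hspa1l. Hspa1b had 6.09-, 10.9-, 3.86- and 4.55-fold (percentiles 42.4, 71.2, 20.5 and 6.69; chr17:34959207-34960036). The promoter windows of Hspa1a and Hspa1b are identical at 296 of 300 positions, and the handling of reads that fit both is not given in the sources used here, so the split between them is uncertain. Hspa4l had peaks in replicate 1 of each group only (8.74- and 4.49-fold), Hspa12a in CTRL replicate 2 only (4.88-fold), and Hspa12b in no library.

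All 3 HSP90 genes had both CTRL peaks (background 32.2%), with different strength. Hsp90b1, the ER paralog GRP94, had 18.2-, 25.4-, 13.9- and 15.0-fold enrichment (percentiles 91.3, 93.6, 90.7 and 89.2; chr10:86705120-86706469). Hsp90ab1, the constitutive cytosolic form, had 12.8-, 16.5-, 4.97- and 15.3-fold (percentiles 82.0, 84.3, 48.7 and 89.3), so it took place 5 among members in C26 replicate 2 and stood below the list median in C26 replicate 1. Hsp90aa1, the stress-inducible form, had weak peaks of 4.84-, 5.80- and 2.84-fold (percentiles 34.2, 38.4 and 4.34) in the first 3 libraries and none in C26 replicate 2.

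The windows of Hsp90b1, a strong member without a CRE core, and of Dnajc27, a J protein gene with a Rab-like domain that held the full CRE, are shown for contrast, with capitals as above (chr10:86705445-86705694, minus strand, and chr12:4082324-4082573, plus strand).
Hsp90b1: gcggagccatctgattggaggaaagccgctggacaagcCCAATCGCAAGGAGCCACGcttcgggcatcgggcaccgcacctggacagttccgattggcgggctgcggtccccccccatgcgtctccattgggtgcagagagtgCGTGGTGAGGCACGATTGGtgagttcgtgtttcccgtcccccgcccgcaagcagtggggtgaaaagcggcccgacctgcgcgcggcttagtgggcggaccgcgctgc
Dnajc27: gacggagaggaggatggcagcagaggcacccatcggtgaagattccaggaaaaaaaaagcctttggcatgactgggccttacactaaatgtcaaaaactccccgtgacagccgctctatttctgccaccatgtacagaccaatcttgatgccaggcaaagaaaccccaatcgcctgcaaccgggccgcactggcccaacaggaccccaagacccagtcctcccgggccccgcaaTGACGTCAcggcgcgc
Hsp90b1 holds ER stress elements that start 212 and 107 bases before the start, and its summits lay 196, 183, 253 and 239 bases before it. Dnajc27 had 14.8-, 24.97-, 8.86- and 5.99-fold enrichment (percentiles 89.4, 93.4, 85.9 and 33.2). Its CRE starts 16 bases before the start, and the summits were 25, 12 and 4 bases after the start and 54 bases before it. The ER stress element was found in 3 of 66 members (4.55%, against 0.166% of all genes), namely Hspa5, Hsp90b1 and Dnajc3. The heat shock element was found in 4 (6.06%, against 0.595%), namely Dnajb6, Hspd1, Hspe1 and Hsph1, of which Hspd1 and Hspe1 share the same stretch.

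Of 9 genes listed as ER chaperones, 7 had both CTRL peaks (background 32.2%) and 5 had all 4 (background 12.7%): Hspa5, Hspa13, Hsp90b1, Dnajb9 and Dnajb11. The list is not complete, and these counts hold for the 9 listed genes only. It leaves out Dnajb12 and Dnajc16, for example, which both had all 4 peaks. Dnajb9, an ER J protein that acts on BiP, had 18.9-, 17.1-, 13.9- and 11.3-fold enrichment. Dnajc3, a J protein of the ER stress response, had 4.68-, 9.70- and 4.24-fold in the first 3 libraries and no peak in C26 replicate 2. Dnajc10 had 3.02- and 8.17-fold in the CTRL libraries and no peak in either C26 library. Dnajc1 and Dnajc25, the remaining listed ER genes, had no gene-end peak but peaks at a start inside the gene, described with the inner starts. Of 10 mitochondrial members, 8 had both CTRL peaks (background 32.2%) and 6 had all 4 (background 12.7%): Hspa9, Hspd1, Hspe1, Dnaja3, Dnajc11 and Dnajc30. Dnaja3, a mitochondrial HSP40, had 4.74-, 8.74-, 7.84- and 6.12-fold (percentiles 44.9, 71.1, 76.8 and 34.7), and Dnajc19, a subunit of the import motor, had 5.62-, 6.74- and 4.24-fold with no peak in C26 replicate 2.

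J domain genes differed by class. The background over all protein-coding genes was 32.2% for both CTRL peaks, 12.7% for all 4 and 57.7% for no peak. All 4 Dnaja genes had both CTRL peaks, and 3 had all 4. Of 13 Dnajb genes, 8 had all 4 peaks, with a median weaker CTRL percentile of 91.9, 1 had a single CTRL peak (Dnajb14) and 4 had none (Dnajb3, Dnajb7, Dnajb8 and Dnajb13, several of them known for expression in testis). Of 28 Dnajc genes, 15 had both CTRL peaks (53.6%), 6 had all 4 and 11 had none. The median weaker CTRL percentile of those 15 was 71.7. Dnajb4 and Dnajb5, cytosolic HSP40 genes, had 15.0-, 28.6-, 7.15- and 7.48-fold and 9.73-, 19.5-, 3.59- and 11.4-fold. Dnajb2, an HSP40 that sorts clients to the proteasome, had 13.1-, 21.3-, 8.29- and 9.17-fold.

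Of the 8 Cct genes with both CTRL peaks, 5 had all 4, 1 had a further peak in C26 replicate 1 and 2 had none in C26 muscle. Over all 7037 genes with both CTRL peaks these shares were 39.6%, 35.3% and 23%. Besides Cct4 and Cct6a, Cct2 had 11.8-, 21.5-, 7.001- and 9.40-fold enrichment, Cct8 had 14.0-, 15.1-, 6.56- and 7.48-fold and Cct3 had 5.51-, 14.1-, 5.72- and 7.16-fold. Cct7 had 12.8-, 15.4- and 5.73-fold with none in C26 replicate 2. The only Cct gene with no peak was Cct8l1, a relative known from testis.

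Small heat shock proteins had the lowest median strength of the families. Of 8 genes, 5 had both CTRL peaks (background 32.2%) and 3 had all 4 (background 12.7%). The median weaker CTRL percentile of the 5 was 58.9, against 80.5 over the 56 members and 62.7 over all 7037 genes with both CTRL peaks. Hspb6 (HSP20), abundant in muscle, had 12.1-, 11.6-, 5.02- and 4.40-fold enrichment (percentiles 76.1, 74.3, 58.8 and 5.68), and Hspb1 (HSP27) had 5.75-, 11.5-, 5.30- and 6.23-fold (percentiles 37.4, 76.9, 45.3 and 37.6). Hspb11, which carries the name but serves in ciliary transport, had 10.8-, 9.43-, 9.14- and 5.38-fold. Hspb8, a partner of BAG3 in selective autophagy, had 8.19-, 13.1- and 4.44-fold with no peak in C26 replicate 2. The muscle genes Hspb2 and Hspb3 had a peak in CTRL replicate 2 and C26 replicate 2 (4.89- and 6.37-fold) and in CTRL replicate 1 alone (5.52-fold).

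**Figure D3:**
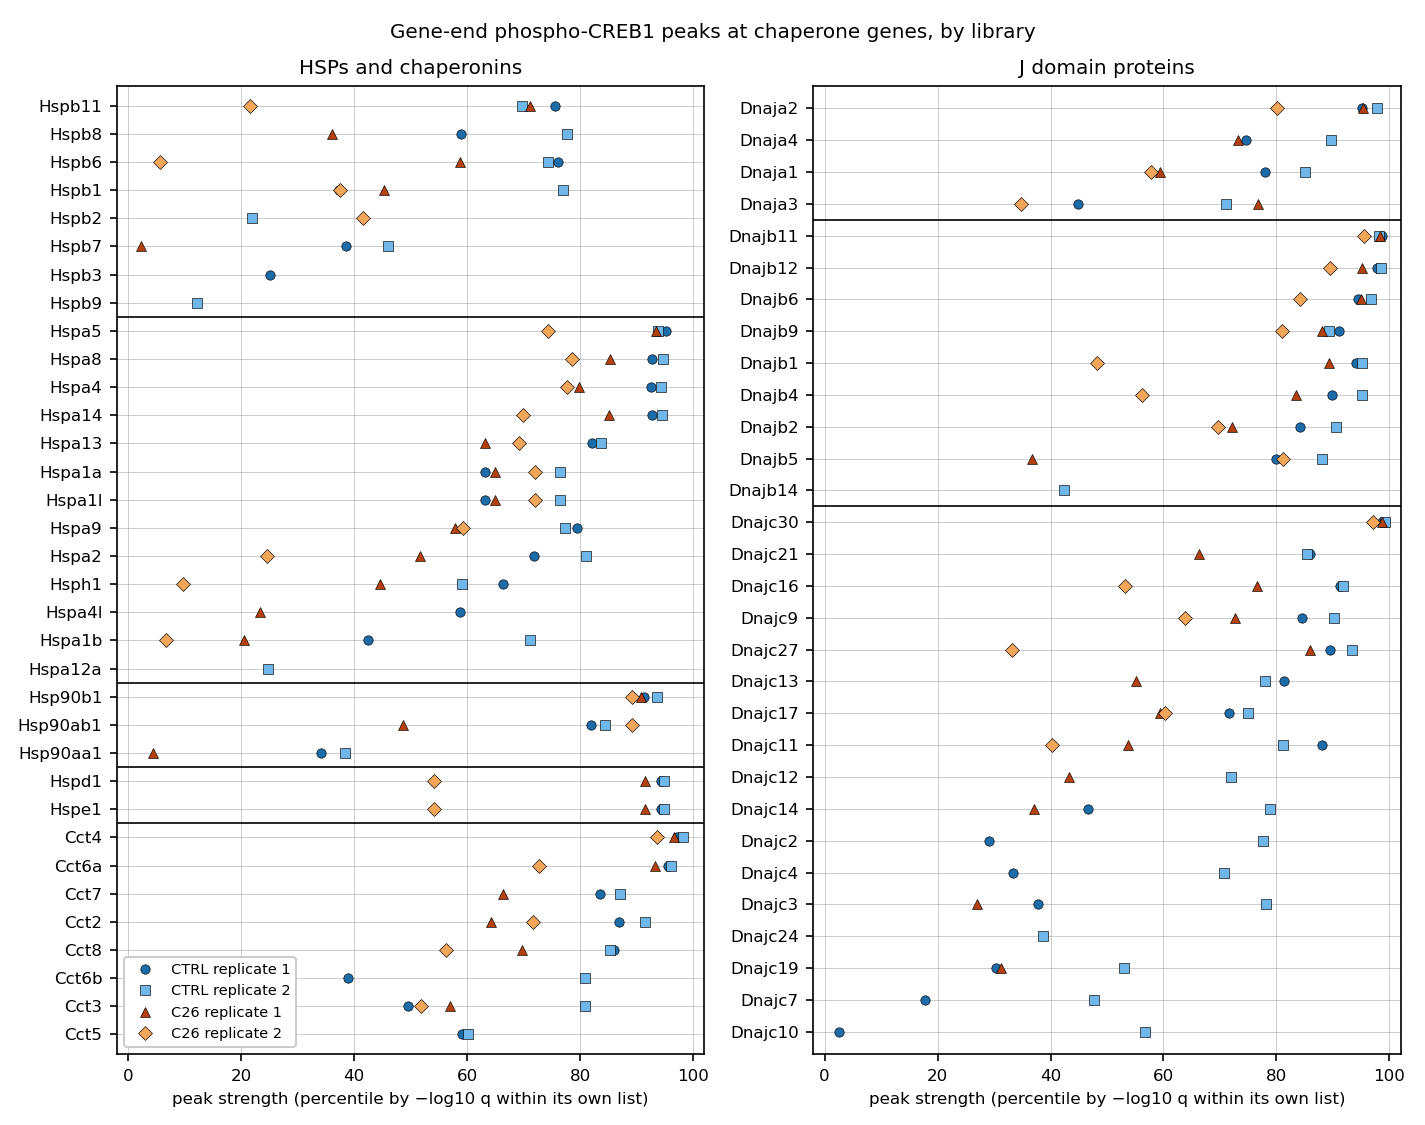
Strength of the strongest gene-end peak (x axis, percentile of −log10 q among the peaks of that library) of the 64 chaperone genes with a peak in at least 1 library, by family and library; a missing symbol is a missing peak. Dnajc30, Dnajb11 and Cct4 lie above 93 in every list, while the small heat shock proteins lie below 78.

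In the comparison of CTRL and C26 muscle, 6 members were bound in CTRL replicates 1 and 2 but in no C26 library: Cct5, Cct6b, Dnajc2, Dnajc4, Dnajc7 and Dnajc10. Cct5, a chaperonin subunit, had 7.94- and 7.29-fold enrichment (chr15:31601476-31602181, shared with Atpsckmt, percentiles 59.2 and 60.2), and its nearest C26 summits lay 70777 and 191681 bp away. Cct6b, a testis-type subunit whose peak also lies at Zfp830, had 5.09- and 14.1-fold (chr11:82764055-82764596). Dnajc4, a J protein, had 4.48- and 10.0-fold (chr19:6992381-6992933, shared with Nudt22), and Dnajc2, a ribosome-associated J protein, had 5.50- and 13.1-fold (chr5:21784827-21785421, shared with the proteasome gene Psmc2). Dnajc7, a co-chaperone of HSP70 and HSP90, had 4.12- and 6.66-fold (chr11:100619082-100619851, shared with Nkiras2). Dnajc10, an ER disulfide reductase, had 3.02- and 8.17-fold (chr2:80315436-80315809), with percentiles of 2.48 and 56.8.

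In CTRL replicate 1 these 6 peaks stood low in the list except that of Cct5, while in CTRL replicate 2 Cct6b, Dnajc2 and Dnajc4 were at percentiles 80.8, 77.7 and 70.8. Over the 6, the CTRL replicates 1 and 2 gave median percentiles of 31.3 and 65.5. Their weaker CTRL percentile ran from 2.48 to 59.2 with a median of 31.3, against 32.0 for all 1619 CTRL-only genes. The median was 52.8 for the 10 members with a further peak in C26 replicate 1 and 86.1 for the 40 with all 4 peaks. At Dnajc2, a peak of C26 replicate 1 had its summit 1409 bp from the gene end, outside the window. The list of 6 moved with the libraries: 10 members lacked a C26 peak without CTRL replicate 1, and 16 without C26 replicate 1. With each list trimmed to its 4051 strongest peaks, 38 members had both CTRL peaks, and 0 of these lacked a C26 peak (7.31% of all genes with both CTRL peaks in trimmed lists).

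The 10 members with both CTRL peaks and C26 replicate 1 alone were Cct7, Dnaja4, Dnajc3, Dnajc13, Dnajc14, Dnajc19, Dnajc21, Hsp90aa1, Hspb7 and Hspb8. By the weaker CTRL percentile the strongest was Dnajc21, a J protein of ribosome biogenesis, with 16.8-, 16.7- and 7.44-fold (percentiles 85.9, 85.4 and 66.3), followed by Cct7 and by Dnajc13, an endosomal J protein, with 8.96-, 13.5- and 4.69-fold. Dnaja4, a cytosolic HSP40, had 9.36-, 20.2- and 8.32-fold (percentiles 74.6, 89.7 and 73.1) and stood above Dnajc21 in CTRL replicate 2 and C26 replicate 1. The list of C26 replicate 2 was the shortest of the 4, and its part in these missing peaks was not tested.

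C26 peaks at the ends of chaperone genes followed CTRL strength. The genes with both CTRL peaks were divided into tertiles by the weaker CTRL percentile, with boundaries at 48.1 and 76.6 set on all 7037 such genes. The strongest tertile held 32 of the 56 members, of which 29 had all 4 peaks (90.6%, against 79.9% of all genes in it) and 0 were CTRL-only (0.512% of all genes in it). The middle tertile held 11, with 8 in all 4 (72.7%, against 30.9%), and the weakest held 13, with 3 in all 4 (23.1%, against 8.01%) and 5 CTRL-only (38.5%, against 51.3%). Of all members with both CTRL peaks, 71.4% had all 4, 17.9% had C26 replicate 1 alone, 0 had C26 replicate 2 alone and 10.7% were CTRL-only, where all such genes had 39.6%, 35.3%, 2.1% and 23%. The share with all 4 was higher among chaperone genes in each tertile, in numbers of 11 to 32 genes that were chosen with these data known.

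**Figure D4:**
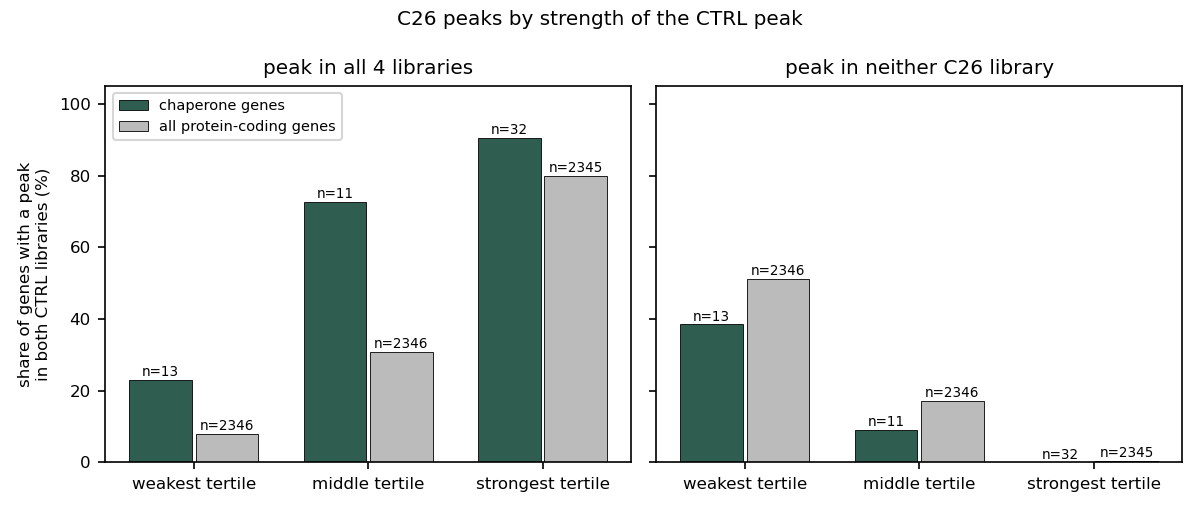
Share (y axis, percent) of genes bound in each CTRL library that had a peak in all 4 (left) or in neither C26 library (right), by tertile of the weaker CTRL percentile, for chaperone genes and all protein-coding genes; n is the number of genes in the tertile. In the strongest tertile 29 of 32 chaperone genes have all 4 peaks and 0 lack a C26 peak.

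At all 40 members with a gene-end peak in every library, the strongest peaks of the 4 libraries overlapped. Their summits spread over a median of 67.5 bp, with 28 members within 100 bp and the widest spread, 482 bp, at Hspb6. The order of strength over these 40 members was similar between the CTRL lists (Spearman rho 0.94, Pearson r 0.81) and between C26 replicate 1 and CTRL replicates 1 and 2 (rho 0.87 and 0.84, r 0.74 and 0.77). C26 replicate 2 had the lowest values with each other list (rho 0.61, 0.63 and 0.55, r 0.58, 0.71 and 0.55). These correlations are across genes, which share libraries and in 2 cases share a peak between neighbors, and are given as descriptions.

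Some members counted as having no gene-end peak were bound at a start inside the annotated gene span. Dnajc25, a J protein gene, had peaks of 13.1-, 24.1-, 6.37- and 3.90-fold with summits 49, 30, 52 and 110 bases before a transcription start deep inside the span; the summits lay 8284 to 8364 bp from its nearer end. Dnajc1, an ER J protein gene, had 14.0-, 12.9-, 5.72- and 6.27-fold peaks whose summits lay from 4 bases before to 84 bases after such a start. Dnajc5, the synaptic vesicle protein CSPα, had 5.53-, 15.2-, 6.68- and 4.43-fold peaks 1600 to 1650 bp inside its span. In the same way, an inner site of Dnajb4 bound only in CTRL muscle (16.6- and 19.6-fold, chr3:152193564-152194107 in CTRL replicate 2) sat 3 and 4 bases after an annotated start, while the outer start of Dnajb4 was bound in all 4 libraries. By starts in place of gene ends, 49 of 66 members with a listed start had both CTRL peaks (74.2%, against 34.8% of 17492 genes), 35 had all 4 (53%, against 13.7%), and 6 were CTRL-only (9.09%, against 7.98%). The CTRL-only gene Dnajc2 has no listed start, and Hspa12a, with an inner start bound in CTRL replicate 1 and the outer start in CTRL replicate 2, joined that list.

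Members without a peak in any library by gene ends were Cct8l1, Dnajb3, Dnajb7, Dnajb8, Dnajb13, Dnajc1, Dnajc5, Dnajc5b, Dnajc5g, Dnajc6, Dnajc8, Dnajc15, Dnajc18, Dnajc22, Dnajc25, Dnajc28 and Hspa12b. Just inside the limit of 1000 bp lay the summits of Hspa4l (782 and 838 bp) and Hspb2 (608 and 831 bp), and just outside it those of Dnajc1 (1265 to 1353 bp). Members with a single gene-end peak were Dnajb14, Dnajc24, Hspa12a and Hspb9 in CTRL replicate 2 and Hspb3 in CTRL replicate 1, with 4.45- to 6.73-fold enrichment. Dnajc12 had peaks in CTRL replicate 2 and C26 replicate 1.

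Partners and regulators of the chaperones outside the symbol rule gave a similar picture. Of 61 such genes, 47 had both CTRL peaks (77.0%, background 32.2%) and 27 had all 4 (44.3%, background 12.7%). CTRL-only were 7 (background 7.4%), which is 14.9% of the 47, against 23% of all genes with both CTRL peaks. No peak was found at 5 (8.2%, background 57.7%), namely Cryaa, Hsf2, Pfdn1, Pfdn4 and Ube4b. St13, an HSP70 cofactor, had 66.2-, 115-, 50.2- and 39.1-fold enrichment, Trap1, the mitochondrial HSP90, had 30.6-, 106.6-, 17.2- and 16.4-fold, and the mitochondrial protease gene Lonp1 had 65.3-, 98.1-, 47.3- and 23.6-fold. Tcp1, the CCT subunit that lacks the family symbol, had 11.1-, 10.3-, 3.80- and 4.12-fold. Hsf1, the master regulator of the heat shock response, was CTRL-only with weak peaks of 3.69- and 5.34-fold. The other CTRL-only genes were the HSP70 exchange factors Bag2 and Bag4, the HSP90 partners Cdc37, Fkbp4 and Ppid, and Unc45a, a myosin chaperone. Bag3, which works with HSPB8 in muscle, had peaks in all 4 libraries (6.33-, 6.09-, 5.79- and 10.6-fold).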

How the data were processed

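Phospho-CREB1 ChIP-seq was deposited as 4 peak lists, 1 per library, so replicates were not pooled. Tools named in the submitters' processing notes are MACS2 2.1.4, SAMtools 1.6, Bowtie2 2.3.5.1, FastQC 0.11.2 and Picard, with mm10 (GRCm38) as the build. Per the labels, an input of the same group served each library, the q threshold was 0.05, and a further filter is named only by an abbreviation. The deposited fold enrichment is the authors' ratio over input at the summit. The deposited −log10 p and −log10 q are the authors' values within a list, and the deposited score repeats −log10 q and was not used. Read counts were not analysed here.

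Gene spans came from the RefSeq GRCm38.p6 table and starts, strands and sequences from RefSeq promoter windows of the same build, which give 66 of 81 members. Where a gene had several peaks in the window, the strongest by −log10 q was used. Pathway genes, markers, motifs and comparison sets were listed with earlier results of these data known, as were the members. Named genes included the 10 strongest by the weaker CTRL percentile among members with a peak in all 4 lists. Also named were all CTRL-only members, the strongest of each family, the 3 strongest with C26 replicate 1 alone, and the 5 strongest peaks inside genes. Other names were added after their values were seen. From the ribosomal set, genes of ribosomal protein kinases and binding proteins were taken out by hand. The window search was tested on simulated peaks. Analyses used Python 3.11.15 and pandas 2.3.3. Alternatives were windows of 500 and 2000 bp, transcription starts only, −log10 q of at least 5, trimmed lists, whole peaks and leaving out each library. An item of the marker list is not reported here.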

Additional observations from a re-analysis of the deposited data

How the results depend on the processing

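Over windows of 500 and 2000 bp, transcription starts only, a −log10 q of at least 5, lists trimmed to 4051 peaks, whole peaks in place of summits and leaving out each library, the number of members with both CTRL peaks ran from 38 (trimmed lists) to 62 and the number with all 4 from 33 to 50, each within 1.5 times of the reported 56 and 40. Leaving out 1 library at a time gave 56 to 62 and 40 to 50. The CTRL-only count of 6 was 6 to 16 with a library left out (10 without CTRL replicate 1, 7 without CTRL replicate 2, 6 without C26 replicate 2 and 16 without C26 replicate 1). Trimmed lists gave 0. The count of C26-only members was 0 to 0 with a library left out and 1, Dnaja3, with trimmed lists, where its peak in neither CTRL library was among the strongest 4051. No paired analysis was possible because the counts come from peak lists with no test across libraries. Because no read depth is given, list lengths and the missing C26 peaks cannot be set against sequencing effort.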

Other observations

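Hspb7, which encodes a small heat shock protein of the sarcomere, had peaks at both ends of its span. In CTRL replicate 2 it had a peak of 7.10-fold at chr4:141419837-141420171 near the start of the span, one of 4.14-fold between, and one of 6.88-fold at chr4:141425605-141426446 near the other end. CTRL replicate 1 had only the last of these (6.26-fold, chr4:141425621-141426255), as did C26 replicate 1 (3.18-fold, 618 bp from that end), so its presence in both CTRL libraries rests on the far end of the gene. By its transcription start, Hspb7 had a peak in CTRL replicate 2 alone.

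Dnajb5, a cytosolic HSP40 gene, had further peaks inside the gene, 2346 to 4159 bp after the nearest start. The strongest had 5.11-, 9.79- and 4.59-fold enrichment in CTRL replicate 1, CTRL replicate 2 and C26 replicate 2, and C26 replicate 1 had one of 4.53-fold nearer to the start. Its gene-end peak stood at percentile 36.7 of C26 replicate 1 and 81.2 of C26 replicate 2.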
